A study of Danio rerio with 4 samples.

Results

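Poly(A) RNA of zebrafish (Danio rerio) tails was sequenced at 3 days post fertilization in 4 libraries that carry the replicate numbers 4 and 3 in their titles. Replicate 4 held 1 library of fish with both carboxypeptidase genes cpa1 and cpa5 knocked out and 1 library of siblings, and replicate 3 held the same pair of genotypes. Both genotypes descend from a cross of cpa1+/-cpa5+/- fish, so the siblings, labelled WT, may include heterozygotes. Genotypes were read from the cut heads, RNA was drawn from the tails, and the tissue label itself says embryo. Genes of the heart, liver, pancreas and intestine were read in every library beside those of muscle and skin. The labels do not say what the replicate numbers stand for, such as a clutch, a day or a tank, nor how many fish each library holds. The p-values rest on how these 4 libraries vary, and that variation may be purely technical.

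The members described here are the features whose difference between replicate 4 and replicate 3 had the same sign in knockouts and in siblings, which were 15023 of 19924 measured features (75.4%). Of these, 7549 were higher and 7474 were lower in replicate 4. A feature was called when it also passed edgeR's quasi-likelihood test with genotype as a term at an adjusted p under 0.05 (Benjamini-Hochberg over all features). By this rule 1393 features (6.99% of those tested) were called higher and 1624 (8.15%) were called lower in replicate 4. Total counts were 35343524 and 32248878 for the knockout and sibling libraries of replicate 4, and 24769258 and 25623442 for those of replicate 3. Levels are given in CPM, counts scaled to a common library size with TMM factors. Wherever 2 values stand for a replicate, the first is the knockout library and the second is the sibling library. Differences are log2 of replicate 4 over replicate 3, with 2 libraries against 2. The value after ± is the absolute log2 difference divided by the square root of the F statistic of the test. It is an approximate standard error and may be too small for genes with few counts in a replicate, such as ela2l.

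A zebrafish larva at this stage has usually left the chorion, lives on the lipids of its yolk, and is completing its gut, liver and pancreas. Its transcripts also follow the time of day. In the clock loop, Clock and Bmal proteins switch on the genes of Per, Cry and Nr1d repressors, which in turn shut down Clock and Bmal activity or their genes, and in zebrafish light acts directly on cells throughout the body. Heat or misfolded protein adds another layer: heat shock factors switch on cytosolic chaperones, and a separate response in the endoplasmic reticulum switches on the chaperones and disulfide isomerases that fold secreted proteins.

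Across the 19924 features the difference within knockouts and the difference within siblings, which share no library, had a Pearson correlation of 0.619 (across features, which are not independent replicates). The median absolute log2 difference was 0.88 among called features and 0.29 among all features. More than 2-fold differences were found for 464 features called higher and 800 called lower, and more than 8-fold differences for 55 and 105. Calls were more frequent among abundant genes: in the lowest quartile of Ensembl genes by mean CPM 2.29% were called higher and 5.11% lower, and in the highest quartile 12.9% and 11.2%. Of the calls 46.2% were higher. This share was 35.3% when counts were scaled to library totals (1378 higher and 2531 lower) and 31.7% with limma on the deposited FPKM values (1122 and 2423). A further 1 feature passed the test with opposite signs in the genotypes and is not counted as a member.

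**Figure D1:**
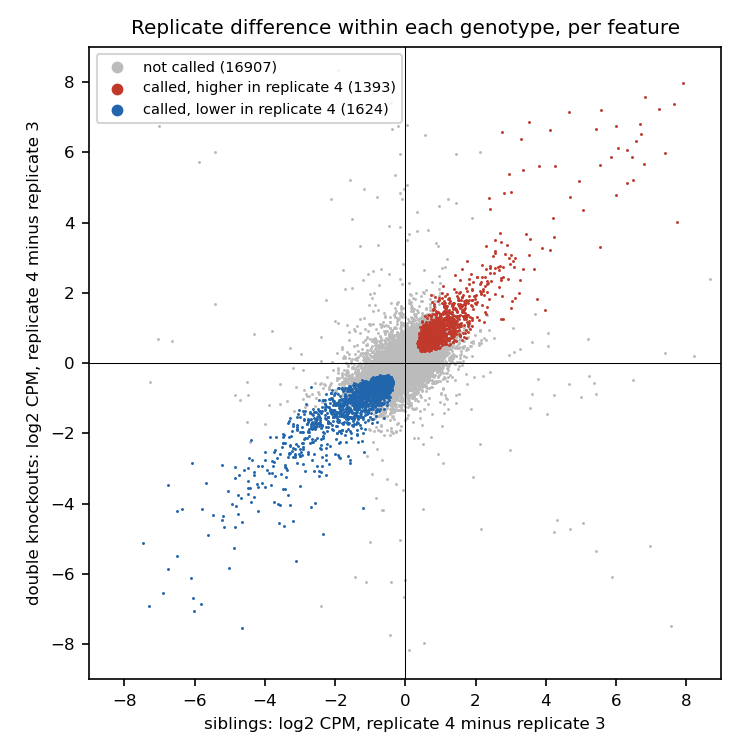
Each point is one of the 19924 features, with its log2 CPM difference (replicate 4 minus replicate 3) in siblings on the x axis and in double knockouts on the y axis. The 1393 features called higher (red) lie in the upper right and the 1624 called lower (blue) in the lower left, since a call required the same sign in both genotypes.

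The number of calls depended on which library was left out. Each fit of 3 libraries also dropped the genotype term, which could not be kept, and the library left alone was assumed to vary like the others. In these fits the sign could be required only in the genotype that kept both libraries. Their counts thus follow a looser sign rule than those of the fit of 4 libraries. What the missing library, the missing term and the looser rule each contribute was not separated. Leaving out sibling replicate 4 gave 331 features called higher and 549 lower, and leaving out knockout replicate 4 gave 540 and 770. The counts were 2422 and 2445 without sibling replicate 3, and 2164 and 2618 without knockout replicate 3. Calls that passed in the fit of 4 libraries and in each of the 4 smaller fits numbered 290 higher and 488 lower. They are described below as held with any library left out. A call described as lost without either replicate 4 library failed in both of the fits that lack one of these libraries.

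The largest positive differences among called genes with a mean of at least 5 CPM were led by chaperones, heart muscle genes and enzymes of the hatching gland. The Hsp110 chaperone gene hsph1 (ENSDARG00000019874) was read at 221 and 209.8 CPM in replicate 4, against 3.12 and 3.08 CPM in replicate 3 (log2 difference 6.12 ± 0.12, adjusted p = 0.001). The unnamed gene si:dkey-239j18.3 had 9.94 and 25.5 CPM in replicate 4, against 0 and 0.468 CPM in replicate 3, and it was read at 0 counts in knockout replicate 3. Its fitted difference was 6.31 ± 0.49 and was 12.08 without sibling replicate 3, a size that depends on the prior count. The gene mss51 (ENSDARG00000075463), whose product is known from mammalian muscle mitochondria, had 463 and 386 CPM in replicate 4, against 17.4 and 14.7 CPM in replicate 3 (log2 difference 4.72 ± 0.11, adjusted p = 0.001). For both hsph1 and mss51 the replicates did not overlap and the genotypes within a replicate lay close together. The other genes among the 15 highest were ctslb, myl7, nppa, hspb1, hspa8b, col10a1a, cmlc1, zgc:174153, hspa1b, he1.1, serpinh1b and fkbp4. The calls of ctslb, col10a1a, he1.1 and zgc:174153 were lost without sibling replicate 4, and that of zgc:174153 also without knockout replicate 3.

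The largest negative differences were led by digestive enzymes. The elastase gene ela2l (ENSDARG00000056765) had 0.203 and 0.254 CPM in replicate 4, against 25.1 and 38.1 CPM in replicate 3 (log2 difference -7.08 ± 0.18, adjusted p = 0.001). The brush border metalloprotease gene mep1a.2 had 0.232 and 0.349 CPM in replicate 4, against 30.8 and 27.6 CPM in replicate 3 (log2 difference -6.64 ± 0.22, adjusted p = 0.00146). The diamine oxidase gene aoc1, whose product breaks down histamine, had 0.609 and 0.127 CPM in replicate 4, against 23.4 and 34.8 CPM in replicate 3 (log2 difference -6.23 ± 0.51, adjusted p = 0.00649). In all 3 genes the highest replicate 4 library stayed below 1 CPM, and both replicate 3 libraries were above 23 CPM. The other genes among the 15 lowest were ela2, ctsbb, si:ch211-113d11.6, ela3l, zgc:112160, zgc:92137, si:ch211-132b12.7, mep1a.1, c6ast4, sult1st2, ctrl and chia.2.

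**Figure D2:**
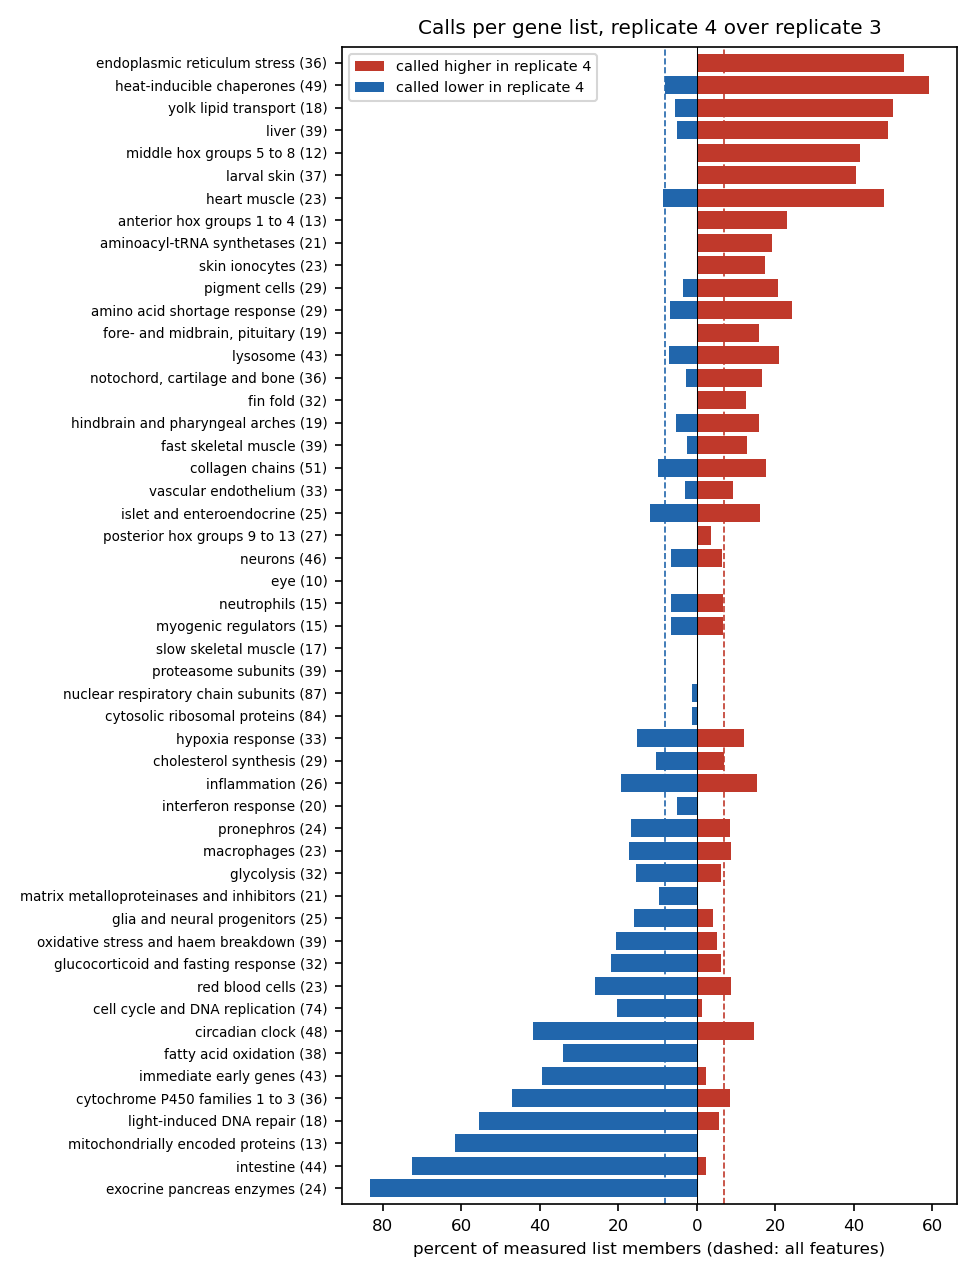
Bars give the percent of measured members of the gene lists with at least 10 of them (number in brackets) called higher in replicate 4 (red, right) or lower (blue, left), and dashed lines mark 6.99% and 8.15%, the shares over all features. A list of that size that is not reported here is left out. The heat-inducible chaperone list (29 of 49 called higher) reaches farthest to the right, and the pancreas and intestine lists (20 of 24 and 32 of 44 called lower) reach farthest to the left.

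Heart genes were higher in replicate 4 as a group of contractile and hormone genes. Of 30 listed heart genes 23 were measured, and 11 were called higher and 2 lower, with a median log2 difference of 0.98 (over all features it was 0.01). The cardiac myosin light chain gene myl7 (ENSDARG00000019096) was read at 711 and 611 counts in replicate 4, against 2 and 18 counts in replicate 3 (log2 difference 5.71 ± 0.54, adjusted p = 0.00861). The atrial natriuretic peptide gene nppa had 18.3 and 17.3 CPM in replicate 4, against 0.116 and 0.936 CPM in replicate 3 (log2 difference 5.14 ± 0.55, adjusted p = 0.0106). The cardiac light chain gene cmlc1 had 11.9 and 10.6 CPM in replicate 4, against 0.0771 and 1.01 CPM in replicate 3 (log2 difference 4.49 ± 0.7, adjusted p = 0.0223). Of these 3 genes knockout replicate 3 held 3 counts or fewer, so the sizes of these differences rest on few reads, and that of cmlc1 was 7.12 without sibling replicate 3. The myosin heavy chain genes are counted more deeply: myh7l had 37.6 and 32.1 CPM in replicate 4, against 4.05 and 5.38 CPM in replicate 3, and myh6, the atrial myosin, had 10.29 and 11.5 CPM in replicate 4, against 1.47 and 2.11 CPM in replicate 3 (log2 differences 2.89 ± 0.18 and 2.62 ± 0.2). The thin filament genes tnnt2a (3.09 ± 0.32) and tnnc1a (4.42 ± 0.81) and the peptide gene nppb (4.35 ± 0.77) were also called higher. For tnnc1a and nppb, which had 0 counts in knockout replicate 3, the values were 9.27 and 8.93 without sibling replicate 3. These 8 calls held with any library left out.

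Other heart genes were mixed. The T-box factor gene tbx5a had 2.12 and 3.24 CPM in replicate 4, against 0.54 and 0.312 CPM in replicate 3 (log2 difference 2.61 ± 0.43, adjusted p = 0.0255), a call lost without sibling replicate 4. The GATA factor gene gata5, which is also expressed in gut endoderm, had 19.4 and 29.4 CPM in replicate 4, against 12.1 and 19.4 CPM in replicate 3 (log2 difference 0.64 ± 0.1, adjusted p = 0.0225), and its call was lost in 3 of the 4 smaller fits. Genes of the list with a wider expression, such as hand2 with 22.6 and 25 CPM in replicate 4, against 23.1 and 25.5 CPM in replicate 3, did not pass the test. The summed level of the list was 613 and 587 CPM in replicate 4 and 585 and 598 CPM in replicate 3, since mybpc3 (293 and 273 CPM in replicate 4, against 349 and 302 CPM in replicate 3) and myh7, which did not pass, were the most abundant members. The natriuretic peptide gene nppal was lower in replicate 4, at 1.45 and 1.02 CPM in replicate 4, against 3.7 and 5.19 CPM in replicate 3 (log2 difference -1.84 ± 0.32, adjusted p = 0.0285), and the calcium pump gene atp2a2a was also lower (log2 difference -0.45 ± 0.1, adjusted p = 0.0447). Both of these calls were lost without sibling replicate 4, where 8 heart genes were called higher and 0 lower. In bulk tissue, fewer cells of a type and less RNA per cell cannot be told apart, and this holds for every tissue described here.

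Hatching gland enzymes were higher in replicate 4, and the genotypes within each replicate differed widely. Of 11 listed genes of the gland 6 were measured, with 3 called higher and 0 lower. Over all features 6.99% were called higher. The gland lies over the yolk and releases proteases that soften the chorion. Its cathepsin gene ctslb (ENSDARG00000039173) was read at 236 and 1517 counts in replicate 4, against 0 and 27 counts in replicate 3, which is 6.84 and 48.1 CPM in replicate 4, against 0 and 1.05 CPM in replicate 3 (log2 difference 5.81 ± 0.41, adjusted p = 0.00518). The hatching enzyme gene he1.1 had 15.1 and 46.2 CPM in replicate 4, against 0.27 and 4.48 CPM in replicate 3 (log2 difference 3.99 ± 0.45, adjusted p = 0.0117). The enzyme gene he1.2 had 4.06 and 11 CPM in replicate 4, against 0.0771 and 1.52 CPM in replicate 3 (log2 difference 3.53 ± 0.53, adjusted p = 0.0209). In every case the sibling library was the higher of its replicate, and the replicates did not overlap. All 3 calls were lost without sibling replicate 4. Without sibling replicate 3 the log2 difference was 12.71 for ctslb, 6.80 for he1.1 and 6.53 for he1.2, and without knockout replicate 3 it was 2.3 for he1.2. The gland's transcription factor genes klf17 (6 and 6.6 CPM in replicate 4, against 6.13 and 5.97 CPM in replicate 3) and prdm1a (19 and 23.6 CPM in replicate 4, against 17 and 15.8 CPM in replicate 3) did not pass the test. With all 4 libraries and no genotype term, 1 gene of the hatching gland list was called higher, against 3 with the term. The paralogues he1.1 and he1.2 are near copies, and the sources used here do not give how shared reads were counted.

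**Figure D3:**
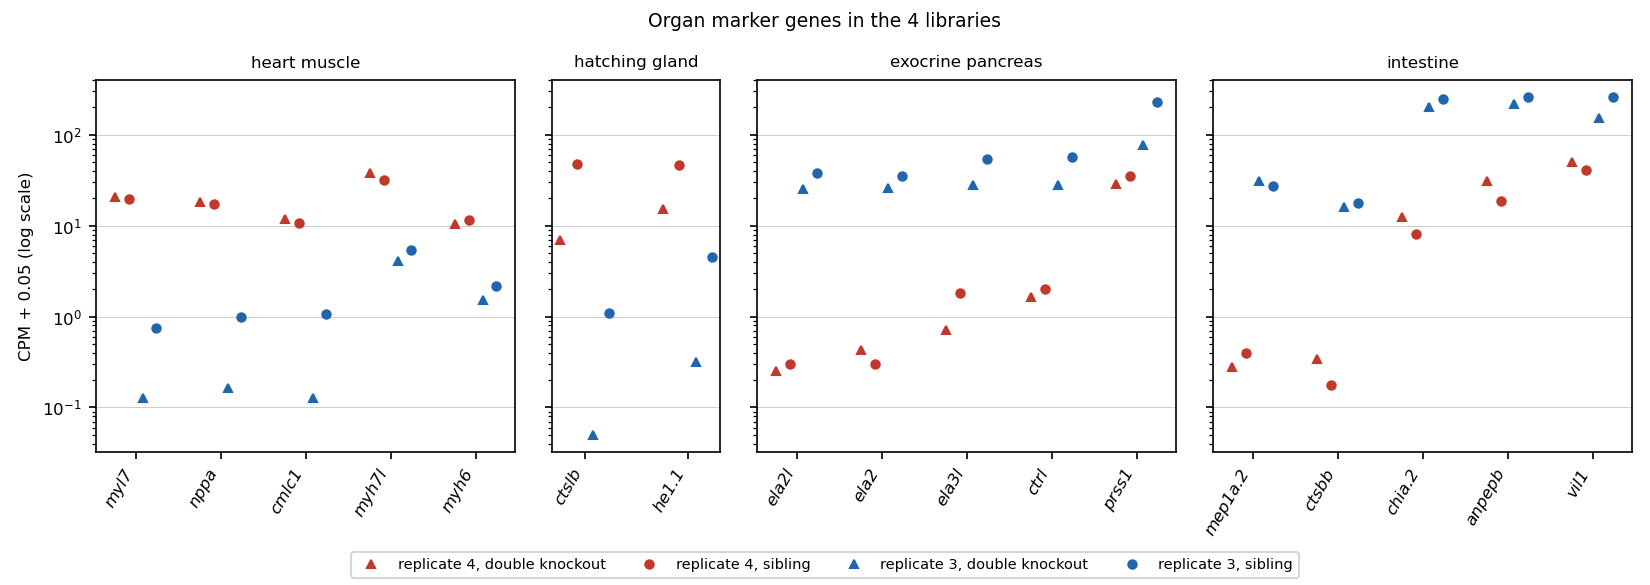
CPM plus 0.05 on a log axis for selected called genes of the heart, hatching gland, exocrine pancreas and intestine in each of the 4 libraries. Replicate 4 (red) lies above replicate 3 (blue) for the heart and hatching gland genes shown, where ctslb in knockout replicate 3 is at 0. It lies below for the pancreas and intestine genes shown. Not shown are 2 heart genes called lower, and 10 heart and 3 hatching gland genes not called.

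Genes of the exocrine pancreas, the organ in which cpa1 and cpa5 themselves are expressed, were lower in replicate 4. Of 39 listed enzyme genes 24 were measured, 20 were called, each of them lower, and the median log2 difference was -3.05 (-2.14 in knockouts and -3.50 in siblings). Summed over the list, the level was 140.1 and 167 CPM in replicate 4, against 543 and 1493 CPM in replicate 3. Elastases, which cut elastin and other food proteins, were among the enzymes with the largest differences, and ela2l, ela2 and ela3l were below 2 CPM in replicate 4. The elastase gene ela2 had 0.377 and 0.254 CPM in replicate 4, against 26.1 and 35 CPM in replicate 3 (log2 difference -6.55 ± 0.24, adjusted p = 0.00165). The gene ela3l had 0.666 and 1.78 CPM in replicate 4, against 28 and 54.6 CPM in replicate 3 (log2 difference -5.12 ± 0.16, adjusted p = 0.00146). The chymotrypsin gene ctrl had 1.59 and 1.97 CPM in replicate 4, against 27.9 and 57.3 CPM in replicate 3 (log2 difference -4.51 ± 0.21, adjusted p = 0.00247). Other elastase genes had smaller differences, with cela1.6 at -2.18 ± 0.42 and cela1.5 at -1.67 ± 0.34, calls lost without either replicate 4 library and for cela1.5 also without sibling replicate 3. Of the trypsin genes prss1 had 28.7 and 35.1 CPM in replicate 4, against 76.9 and 232 CPM in replicate 3 and prss59.1 had 10.17 and 14.7 CPM in replicate 4, against 59.7 and 195 CPM in replicate 3 (log2 differences -2.08 ± 0.32 and -3.15 ± 0.3). The lower level was shared by protease genes of 3 kinds and by other enzymes. The amylase gene amy2a, which digests starch, had 1.68 and 2.25 CPM in replicate 4, against 23.6 and 23.4 CPM in replicate 3 (log2 difference -3.58 ± 0.17, adjusted p = 0.00272). The carboxypeptidase gene cpa4, a relative of the knocked out genes, had 5.53 and 6.98 CPM in replicate 4, against 20.2 and 41.6 CPM in replicate 3 (log2 difference -2.23 ± 0.2, adjusted p = 0.00758). The gene cpb1 had 11.2 and 15.3 CPM in replicate 4, against 30.5 and 66.8 CPM in replicate 3 (log2 difference -1.79 ± 0.19, adjusted p = 0.0102). Each replicate 4 library was below each replicate 3 library for all of these genes.

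Within replicate 3 the sibling library was the higher for 23 of these 24 genes, amy2a being the exception. The count of pancreas genes called lower was 11 without sibling replicate 4, 12 without knockout replicate 4, 20 without sibling replicate 3 and 23 without knockout replicate 3. Among the genes above, cpb1 and prss1 lost their calls without either replicate 4 library, prss59.1 lost it without knockout replicate 4, and the log2 difference of prss1 was -1.27 without sibling replicate 3. The 10 calls held with any library left out were those of ela2l, ela2, ela3l, ctrl, amy2a, cpa4, cela1.2, cela1.3, zgc:112160 and zgc:136461, with cela1.2 at -9.03 without knockout replicate 4 and cela1.3 at -7.92 without sibling replicate 4. The genes spink4, pdia2, cela1.4 and prss60.2 did not pass the test, and prss60.2 was the member with a positive difference (1.35). Of 25 measured islet and enteroendocrine genes 4 were called higher and 3 lower, with a median of -0.08 (0.05 to 0.13 in 3 of the smaller fits). The insulinoma-associated factor gene insm1a (2.81 and 5.27 CPM in replicate 4, against 1.31 and 1.36 CPM in replicate 3) and the peptide YY gene pyya (4.87 and 4.47 CPM in replicate 4, against 2.04 and 1.99 CPM in replicate 3) were higher, and the somatostatin gene sst2 (1.36 and 1.52 CPM in replicate 4, against 5.86 and 4.05 CPM in replicate 3) was lower. The calls of insm1a and pyya were lost without sibling replicate 4, where sst2 was the 1 gene of the list still called.

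Absorptive and secretory genes of the intestine were lower in replicate 4. Of 53 listed genes 44 were measured, with 32 called lower, 1 called higher and a median log2 difference of -2.02. The summed level was 539 and 485 CPM in replicate 4, against 1620.1 and 2389 CPM in replicate 3. Brush border peptidases were among the genes with the largest differences: anpepb, an aminopeptidase, had 31.3 and 18.7 CPM in replicate 4, against 216 and 261 CPM in replicate 3 (log2 difference -3.29 ± 0.27, adjusted p = 0.00647), and mep1a.1, a meprin, had 0.695 and 0.412 CPM in replicate 4, against 15.5 and 17.6 CPM in replicate 3 (log2 difference -4.88 ± 0.27, adjusted p = 0.00335). Villin, a bundler of microvillar actin, was read through vil1 at 50.7 and 41 CPM in replicate 4, against 152 and 261 CPM in replicate 3 (log2 difference -2.13 ± 0.27, adjusted p = 0.0149). For each of these genes both replicate 4 libraries lay below both replicate 3 libraries.

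Transporters of the gut followed. The peptide carrier gene slc15a1b had 2.2 and 2 CPM in replicate 4, against 25.3 and 29.2 CPM in replicate 3 (log2 difference -3.69 ± 0.15, adjusted p = 0.00199). The glucose carrier gene slc5a1 had 5.94 and 5.17 CPM in replicate 4, against 26.4 and 36.3 CPM in replicate 3 (log2 difference -2.48 ± 0.19, adjusted p = 0.00584). The bile acid carrier gene slc10a2 had 1.25 and 0.698 CPM in replicate 4, against 13.9 and 12.8 CPM in replicate 3 (log2 difference -3.8 ± 0.25, adjusted p = 0.00476). Acidic chitinases were represented by chia.2 at 12.5 and 8.09 CPM in replicate 4, against 202 and 248 CPM in replicate 3 (log2 difference -4.46 ± 0.26, adjusted p = 0.00355), with chia.1, chia.4 and chia.6 also called lower, the call of chia.4 being lost without either replicate 4 library. Endocytic genes of the hindgut were lower as well: lrp2b, a megalin receptor, had 0.956 and 0.19 CPM in replicate 4, against 7.33 and 17.2 CPM in replicate 3 (log2 difference -4.31 ± 0.77, adjusted p = 0.0301). The cathepsin gene ctsbb had 0.29 and 0.127 CPM in replicate 4, against 16 and 17.7 CPM in replicate 3 (log2 difference -6.29 ± 0.31, adjusted p = 0.00289). The fatty acid binding gene fabp2 showed a smaller difference, at 65.3 and 61.3 CPM in replicate 4, against 107 and 227 CPM in replicate 3 (log2 difference -1.3 ± 0.29, adjusted p = 0.046), whose call was lost without sibling replicate 4 and without knockout replicate 4 and which was at -0.76 without sibling replicate 3. The nuclear factor gene hnf4g had a log2 difference of -1.01 ± 0.23, and its call was lost in the same fits. The anterior gradient gene agr2, of mucous cells, was the 1 member called higher (39.7 and 47.1 CPM in replicate 4, against 25.6 and 27.8 CPM in replicate 3), and that call was lost without sibling replicate 4. The count called lower was 26 to 37 in the smaller fits, and 26 calls held with any library left out.

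Of 44 listed liver genes 39 were measured, with 19 called higher, 2 called lower and a median log2 difference of 0.76. Those named here as higher code for secreted plasma proteins. The complement gene c3a.1 (ENSDARG00000012694) had 966 and 1211 CPM in replicate 4, against 278 and 404 CPM in replicate 3 (log2 difference 1.69 ± 0.1, adjusted p = 0.00429). Both genotypes were higher in replicate 4 for c3a.1 and for hemopexin, which the rule for a call requires. The gene hpxb, coding for the haem carrier hemopexin, had 23.6 and 30.6 CPM in replicate 4, against 2.12 and 4.52 CPM in replicate 3 (log2 difference 3.08 ± 0.2, adjusted p = 0.00486). These 2 were the calls that held with any library left out. The terminal complement gene c9 had 383 and 516 CPM in replicate 4, against 109.7 and 264 CPM in replicate 3 (log2 difference 1.38 ± 0.21, adjusted p = 0.0218). Clotting and iron transport genes followed. The fibrinogen gene fga had 351 and 450.3 CPM in replicate 4, against 134 and 251 CPM in replicate 3 (log2 difference 1.12 ± 0.15, adjusted p = 0.0173). The transferrin gene tfa, for iron transport, had 1511 and 2478 CPM in replicate 4, against 893 and 1438 CPM in replicate 3 (log2 difference 0.77 ± 0.09, adjusted p = 0.0128). In each of these the knockout library was lower than the sibling library of its replicate, and sibling replicate 3 came close to knockout replicate 4 for tfa. These 3 calls were lost without either replicate 4 library, that of tfa also without knockout replicate 3, and without knockout replicate 3 the log2 differences of c9 and fga were 0.77 and 0.67. Without sibling replicate 3 that of tfa was 1.16. The genes called lower were enzymes: tdo2a, which opens the ring of tryptophan, had 2.58 and 1.21 CPM in replicate 4, against 17.2 and 16.1 CPM in replicate 3 (log2 difference -3.19 ± 0.27, adjusted p = 0.00724). The cytochrome gene cyp2k6 had 0.898 and 1.08 CPM in replicate 4, against 6.09 and 5.89 CPM in replicate 3 (log2 difference -2.6 ± 0.23, adjusted p = 0.00766). Both held with any library left out. With all 4 libraries and no genotype term, 5 liver genes were called higher, against 19 with the term. The smaller fits also lack this term. The number of liver genes called higher was 3 without sibling replicate 4, 4 without knockout replicate 4, 8 without knockout replicate 3 and 31 without sibling replicate 3.

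Apolipoproteins and other genes that package yolk lipid moved in the same direction. Of 18 measured genes 9 were called higher and 1 lower, with a median of 0.65, and the summed level was 21894 and 28743 CPM in replicate 4, against 12123 and 19467 CPM in replicate 3. The gene apoa1a had 1583 and 2185 CPM in replicate 4, against 681 and 1106 CPM in replicate 3 (log2 difference 1.1 ± 0.11, adjusted p = 0.00898), and the apolipoprotein B gene apobb.1 had 5759.8 and 7695 CPM in replicate 4, against 3346 and 5239 CPM in replicate 3 (log2 difference 0.67 ± 0.11, adjusted p = 0.0258). The lipid storage enzyme gene dgat2 was lower (27.2 and 33.4 CPM in replicate 4, against 43.1 and 59.8 CPM in replicate 3). With all 4 libraries and no genotype term, 5 genes of the list were called higher, against 9 with the term. The list lost all of its calls without sibling replicate 4, and apobb.1 was at 1.01 without sibling replicate 3. The counts called higher were 5 without knockout replicate 4, 7 without knockout replicate 3 and 16 without sibling replicate 3.

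Red blood cell genes did not move one way. Of 23 measured, 2 were called higher and 6 lower. The embryonic beta globin gene hbbe3 had 8.46 and 8.63 CPM in replicate 4, against 0.347 and 0.195 CPM in replicate 3 (log2 difference 4.96 ± 0.31, adjusted p = 0.00433), and hbbe1.2 had 248 and 228 CPM in replicate 4, against 64.6 and 137 CPM in replicate 3 (log2 difference 1.33 ± 0.29, adjusted p = 0.0457). Genes of iron uptake and of the red cell membrane were lower: the transferrin receptor gene tfr1a had 18.8 and 18.5 CPM in replicate 4, against 34.1 and 36.3 CPM in replicate 3 (log2 difference -0.92 ± 0.1, adjusted p = 0.011). The anion exchanger gene slc4a1a had 30.7 and 36 CPM in replicate 4, against 51.9 and 103 CPM in replicate 3 (log2 difference -1.14 ± 0.2, adjusted p = 0.0286). The membrane skeleton gene epb41b had 4.67 and 5.58 CPM in replicate 4, against 10.1 and 16.6 CPM in replicate 3 (log2 difference -1.35 ± 0.17, adjusted p = 0.0145). The haem synthesis gene urod (10.7 and 9.74 CPM in replicate 4, against 17.8 and 28.1 CPM in replicate 3) and the erythroid factor gene klf1 (0.348 and 0.984 CPM in replicate 4, against 2.66 and 3.74 CPM in replicate 3) were lower as well. Of these calls those of hbbe3 and tfr1a held with any library left out, and those of the other genes named were lost without knockout replicate 4, where 1 gene was called higher and 1 lower. The counts were 1 and 2 without sibling replicate 4, 11 and 6 without sibling replicate 3, and 4 and 9 without knockout replicate 3. The log2 difference of hbbe1.2 was 0.80 without knockout replicate 3, and that of slc4a1a was -0.64 without sibling replicate 3. Globin genes are near copies of one another, so a shift of reads between hbbe3 and its relatives cannot be told apart from a change of the gene.

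Larval skin genes were higher in replicate 4. Of 37 measured genes of the keratinocyte list 15 were called, each of them higher, with a median of 0.42, and the summed level was 38571 and 41548 CPM in replicate 4, against 25807 and 28735 CPM in replicate 3. Adhesion genes led: plakophilin pkp1b, a desmosome component, had 19.8 and 23.2 CPM in replicate 4, against 9.64 and 7.99 CPM in replicate 3 (log2 difference 1.28 ± 0.16, adjusted p = 0.014). The gene epcam had 36.9 and 47.5 CPM in replicate 4, against 19.5 and 19.1 CPM in replicate 3 (log2 difference 1.12 ± 0.13, adjusted p = 0.0126). The calcium binding gene icn (283 and 284 CPM in replicate 4, against 135 and 169 CPM in replicate 3), s100a10b (223 and 233 CPM in replicate 4, against 135 and 131 CPM in replicate 3) and the actin regulator gene pfn1 (1579 and 1569.7 CPM in replicate 4, against 973 and 909 CPM in replicate 3) were also called higher, and these 5 calls held with any library left out. The surface keratin gene krt4 had 11959.9 and 14662 CPM in replicate 4, against 6033 and 9992 CPM in replicate 3 (log2 difference 0.77 ± 0.14, adjusted p = 0.0328). The basal layer factor gene tp63 had 36.8 and 36 CPM in replicate 4, against 24.8 and 22.8 CPM in replicate 3 (log2 difference 0.61 ± 0.1, adjusted p = 0.024). These 2 calls were lost without sibling replicate 4 and without knockout replicate 4, and krt4 was at 0.41 without knockout replicate 3. The list count was 6 and 7 in those fits, 18 without sibling replicate 3 and 20 without knockout replicate 3.

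Ionocytes, the skin cells that exchange ions with the water, had 4 of 23 measured genes called, all higher. These were the calcium channel gene trpv6 (30.3 and 32.4 CPM in replicate 4, against 12.8 and 17 CPM in replicate 3), the carbonic anhydrase gene ca15a (30 and 31.5 CPM in replicate 4, against 16.4 and 16 CPM in replicate 3), the chloride channel gene clcn2c (30.1 and 29.2 CPM in replicate 4, against 14.3 and 19.9 CPM in replicate 3) and the regulator gene gcm2 (15.4 and 16.3 CPM in replicate 4, against 10.6 and 11.07 CPM in replicate 3). The count was 2 without either replicate 4 library, and the call of ca15a held with any library left out. Called in either direction were 17.4% of the ionocyte genes and 12.5% of the fin fold genes, against 15.1% of all features. Fin fold genes had 4 of 32 called higher (bmp1a, prrx1a, fgfr1a and lama5, log2 differences 0.54, 0.51, 0.45 and 0.43). All 4 calls were lost without either replicate 4 library, and 11 of the list were called without knockout replicate 3.

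Cartilage and bone genes included some of the largest positive differences. The hypertrophic cartilage and bone collagen gene col10a1a (ENSDARG00000054753) had 57.6 and 67.5 CPM in replicate 4, against 0.424 and 5.81 CPM in replicate 3 (log2 difference 4.67 ± 0.72, adjusted p = 0.0216), and the genotypes within replicate 3 differed far more than those within replicate 4. Its call was lost without sibling replicate 4 (adjusted p = 0.0552), and without sibling replicate 3 the log2 difference was 7.19. The cartilage genes col9a1a, at 18.7 and 12.7 CPM in replicate 4, against 2.2 and 2.18 CPM in replicate 3, and acana, coding for aggrecan, at 14 and 14.4 CPM in replicate 4, against 3.2 and 3.82 CPM in replicate 3, gave log2 differences of 2.82 ± 0.2 and 2.02 ± 0.15. The bone mineralization gene entpd5a had 3.77 and 4.44 CPM in replicate 4, against 1.04 and 1.13 CPM in replicate 3 (log2 difference 1.91 ± 0.24, adjusted p = 0.014). The last 3 calls held with any library left out. In the whole list 6 of 36 measured genes were called higher and 1, sox6, lower. The call of sox6 was lost in 3 of the 4 smaller fits, and its log2 difference of -0.55 was -0.35 without sibling replicate 4 and -0.29 without knockout replicate 3. The notochord collagen gene col2a1b had 494 and 521 CPM in replicate 4, against 348 and 394 CPM in replicate 3 (log2 difference 0.45 ± 0.09, adjusted p = 0.0384), a call lost without either replicate 4 library. The counts were 3 and 0 without sibling replicate 4, 4 and 1 (not sox6) without knockout replicate 4, 13 and 2 without sibling replicate 3, and 7 and 3 without knockout replicate 3.

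Collagen synthesis offered a companion set. Of 51 collagen chain genes 9 were called higher and 5 lower, with a median of 0.16. Called higher were col8a2 (21.5 and 29.4 CPM in replicate 4, against 8.75 and 9.05 CPM in replicate 3), col5a2b (3.01 and 3.08 CPM in replicate 4, against 0.231 and 0.351 CPM in replicate 3) and the skin anchoring collagen gene col17a1b (61.7 and 65 CPM in replicate 4, against 27 and 24.8 CPM in replicate 3). Called lower were col18a1b (13.4 and 12.9 CPM in replicate 4, against 25.2 and 24.4 CPM in replicate 3) and the basement membrane gene col4a1 (71.5 and 68.3 CPM in replicate 4, against 96.3 and 91.7 CPM in replicate 3), and the call of col4a1 was lost without sibling replicate 4 and without knockout replicate 4. The prolyl hydroxylases that modify collagen in the endoplasmic reticulum were higher together. The gene p4ha1b had 31.2 and 41.1 CPM in replicate 4, against 5.9 and 5.3 CPM in replicate 3 (log2 difference 2.67 ± 0.17, adjusted p = 0.00433), p4ha2 had 75 and 93.7 CPM in replicate 4, against 18.5 and 18.7 CPM in replicate 3 (log2 difference 2.17 ± 0.12, adjusted p = 0.00355) and p4ha1a had 70.4 and 69.4 CPM in replicate 4, against 25 and 22.1 CPM in replicate 3 (log2 difference 1.57 ± 0.11, adjusted p = 0.00486). The collagen chaperone gene serpinh1b had 1205 and 1661 CPM in replicate 4, against 129 and 95.4 CPM in replicate 3 (log2 difference 3.67 ± 0.24, adjusted p = 0.00486). Its copy serpinh1a had 309 and 356 CPM in replicate 4, against 131 and 95.2 CPM in replicate 3 (log2 difference 1.57 ± 0.18, adjusted p = 0.0118). All 5 of these modifier and chaperone calls held with any library left out. For the collagen chains 4 calls higher and 1 lower did, with 4 and 1 called without sibling replicate 4, 5 and 1 without knockout replicate 4, 18 and 6 without sibling replicate 3, and 13 and 7 without knockout replicate 3. The prolyl hydroxylases belong to the hypoxia list, in which 4 of 33 genes were called higher and 5 lower. The hypoxia factor gene epas1b was lower there, at 14.4 and 11.6 CPM in replicate 4, against 40 and 38.5 CPM in replicate 3 (log2 difference -1.6 ± 0.12, adjusted p = 0.00541), and its call held with any library left out.

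Skeletal muscle makes up most of the tail. The 39 measured fast fibre genes had 5 called higher and 1 lower with a median of 0.08. Together 15.4% of them were called, near the 15.1% of all features called in either direction. The actin gene acta1b had 7468 and 7413 CPM in replicate 4, against 5172 and 4427 CPM in replicate 3 (log2 difference 0.64 ± 0.11, adjusted p = 0.0282), and the glycolytic gene pgam2 was lower (252 and 239.8 CPM in replicate 4, against 353 and 345 CPM in replicate 3). The fast fibre list lost all of its calls without sibling replicate 4 and had 10 called higher without sibling replicate 3. Slow fibre genes had 0 calls among 17 measured by edgeR, DESeq2 and limma-voom, with a median of -0.09. At an unadjusted p under 0.05 edgeR had 2 of them higher and 3 lower. Myogenic regulator genes were called at a share of 13.3%, below the 15.1% of all features. Of 15 myogenic regulator genes 1 was called higher, six1a (13.9 and 13.9 CPM in replicate 4, against 9.83 and 8.58 CPM in replicate 3), and 1 lower, mef2ca (102 and 96.4 CPM in replicate 4, against 137 and 155 CPM in replicate 3). Both of these calls were lost without sibling replicate 4 and without knockout replicate 4.

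Neuron genes were called at a share of 13%, near the background. Of 46 measured neuron genes 3 were called higher (stmn1b, isl2a and elavl4) and 3 lower (snap25a, cplx2l and chata), with a median of 0.05, which turned negative in 4 of the alternative analyses, such as with counts scaled to library totals (-0.02). All 6 calls were lost without either replicate 4 library. Among 25 glia and progenitor genes 4 were called lower and 1, slc1a2b, higher, and the lower ones are genes of myelin and glia. The myelin basic protein gene mbpa had 25.4 and 23.9 CPM in replicate 4, against 47.7 and 62.3 CPM in replicate 3 (log2 difference -1.14 ± 0.15, adjusted p = 0.0148). The glial calcium binding gene s100b had 8.93 and 8.06 CPM in replicate 4, against 20.1 and 26.8 CPM in replicate 3 (log2 difference -1.45 ± 0.17, adjusted p = 0.0122). The myelin adhesion gene mpz had 1.28 and 0.984 CPM in replicate 4, against 3.7 and 3.63 CPM in replicate 3 (log2 difference -1.7 ± 0.26, adjusted p = 0.0205). The call of mpz was lost without sibling replicate 4. The calls of mbpa and s100b held with any library left out.

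Genes of the eye and of the fore- and midbrain were scarce in all 4 libraries. The hindbrain, pharyngeal and ear list, which includes stm, summed to 305 and 273 CPM in replicate 4, against 467 and 496 CPM in replicate 3. Of 91 eye genes 10 were measured, and their summed level was 41.2 and 40.8 CPM in replicate 4 and 36.0 and 47.9 CPM in replicate 3, with 0 called by edgeR, DESeq2 or limma-voom and 1 in each direction at an unadjusted p under 0.05 in edgeR. Of 48 fore- and midbrain genes 19 were measured, at 94.6 and 92.2 CPM in replicate 4 and 86.4 and 69.8 CPM in replicate 3. In either direction 15.8% of these were called, against 15.1% of all features. Here 3 were called higher, each at low level: the tyrosine hydroxylase gene th (2.09 and 1.05 CPM in replicate 4, against 0.347 and 0.312 CPM in replicate 3), dmbx1a (2.29 and 1.84 CPM in replicate 4, against 0.733 and 0.585 CPM in replicate 3) and the telencephalon factor gene foxg1a (2 and 2.22 CPM in replicate 4, against 0.771 and 0.624 CPM in replicate 3). All 3 calls were lost without knockout replicate 4. Hindbrain, pharyngeal and ear genes had 3 of 19 called higher (1 without either replicate 4 library) and 1 lower. The arch cartilage factor gene barx1 had 5.51 and 5.3 CPM in replicate 4, against 1.81 and 1.6 CPM in replicate 3 (log2 difference 1.66 ± 0.21, adjusted p = 0.0143). The gene stm, coding for the ear stone matrix protein starmaker, had 161 and 119 CPM in replicate 4, against 333 and 367 CPM in replicate 3 (log2 difference -1.33 ± 0.16, adjusted p = 0.013). Both held with any library left out.

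The kidney, vessels, blood and pigment cells held single genes that differed. In either direction 25% of measured pronephros genes were called, 12.1% of endothelial, 26.1% of macrophage, 13.3% of neutrophil and 24.1% of pigment genes. Over all features 15.1% were called, so the endothelial and neutrophil shares lay below that. In the pronephros 2 of 24 genes were called higher and 4 lower. The endocytic receptor gene lrp2a had 21.8 and 18.9 CPM in replicate 4, against 6.56 and 7.99 CPM in replicate 3 (log2 difference 1.49 ± 0.16, adjusted p = 0.011). The phosphate carrier gene slc20a1a had 11.5 and 11.14 CPM in replicate 4, against 3.89 and 4.13 CPM in replicate 3 (log2 difference 1.5 ± 0.16, adjusted p = 0.0103). The tubule cadherin gene cdh17 had 106 and 90.3 CPM in replicate 4, against 198 and 224 CPM in replicate 3 (log2 difference -1.11 ± 0.13, adjusted p = 0.0122). All 3 held with any library left out, and the count called lower was 1 without either replicate 4 library. Of 33 endothelial genes 3 were called higher and 1 lower, led by the scavenger receptor gene stab2 of venous endothelium (74.2 and 76.1 CPM in replicate 4, against 44.1 and 40.9 CPM in replicate 3) and by plvapa (6.75 and 5.49 CPM in replicate 4, against 13.8 and 15.5 CPM in replicate 3), which both held, with 1 called higher without either replicate 4 library. Of 23 macrophage genes 2 were called higher and 4 lower. The secreted lectin partner gene lgals3bpb had 8.55 and 8.25 CPM in replicate 4, against 19.3 and 17.4 CPM in replicate 3 (log2 difference -1.13 ± 0.12, adjusted p = 0.0105), and it was the call of that list that held with any library left out, with 2 called lower without sibling replicate 4 and 1 without knockout replicate 4. Neutrophil genes had 1 of 15 called in each direction (il6r higher, srgn lower), both lost without sibling replicate 4.

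In the pigment list 6 of 29 genes were called higher, 1 lower and 22 not called, with a median log2 difference of 0.11. The list had a summed level of 2148 and 2295 CPM in replicate 4, against 1476 and 1597 CPM in replicate 3. Most of the gap between these sums came from a single gene, paics, described below. The melanin enzyme gene tyrp1a had 84.8 and 71.4 CPM in replicate 4, against 43.9 and 41.1 CPM in replicate 3 (log2 difference 0.87 ± 0.1, adjusted p = 0.0125) and was the 1 call of the list that held with any library left out. The melanosome matrix gene pmela had 313 and 300 CPM in replicate 4, against 229.6 and 216 CPM in replicate 3, and the lineage factor gene mitfa had 10.5 and 9.3 CPM in replicate 4, against 6.21 and 4.6 CPM in replicate 3. The calls of pmela and mitfa were lost without either replicate 4 library. Purine synthesis, which supplies the reflecting crystals of iridophores and growing cells in general, was represented by paics at 713 and 930.5 CPM in replicate 4, against 174 and 345 CPM in replicate 3 (log2 difference 1.73 ± 0.17, adjusted p = 0.00893), a call lost without sibling replicate 4. In that fit 1 pigment gene was called higher, and without knockout replicate 4 there were 2.

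Hox genes have a nested expression that marks position along the body axis. Of 13 anterior genes (groups 1 to 4) 3 were called, all higher, with a median of 0.49. Of 12 middle genes (groups 5 to 8) 5 were called, all higher, with a median of 0.71. Of the 27 genes of the posterior list (groups 9 to 13 and neighbours such as evx2) 1 was called, evx2, which was higher, and the median was -0.09. The gene hoxb5b had 13.2 and 13.5 CPM in replicate 4, against 5.24 and 3.7 CPM in replicate 3 (log2 difference 1.59 ± 0.19, adjusted p = 0.0123). Of the neighbouring group, hoxb4a had 11.5 and 12.5 CPM in replicate 4, against 5.28 and 4.99 CPM in replicate 3 (log2 difference 1.22 ± 0.15, adjusted p = 0.0133). The gene hoxc5a had 10.23 and 13.7 CPM in replicate 4, against 4.9 and 4.48 CPM in replicate 3 (log2 difference 1.34 ± 0.19, adjusted p = 0.019). For all 3 the replicates did not overlap. Also called were hoxb3a, hoxc4a, hoxb5a, hoxb6a and hoxc6a.

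From group 7 onward the medians by group lay between -0.24 and 0.08, and there were no calls. The abundant posterior gene hoxb9a had 79.3 and 80.5 CPM in replicate 4, against 101 and 72.2 CPM in replicate 3 (log2 difference -0.09 ± 0.15, adjusted p = 0.69). The gene hoxa13b, of the tail end, had 6.64 and 6.44 CPM in replicate 4, against 6.63 and 6.24 CPM in replicate 3 (log2 difference 0.02 ± 0.17, adjusted p = 0.941). By paralogue group the median log2 difference was 0.83 in group 4, 1.12 in group 5 and 0.93 in group 6, and -0.08 in group 13. The genes hoxc6b (-0.5) and hoxb7a (-0.24) stood on the other side of 0 without passing the test. The calls of hoxb4a and hoxb5b held with any library left out, and the other 7, hoxc5a and evx2 among them, were lost without sibling replicate 4. The counts of anterior and middle genes called higher were 1 and 1 in that fit, 1 and 4 without knockout replicate 4, and 6 and 8 without knockout replicate 3. The labels do not say where the body was divided in either replicate.

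**Figure D4:**
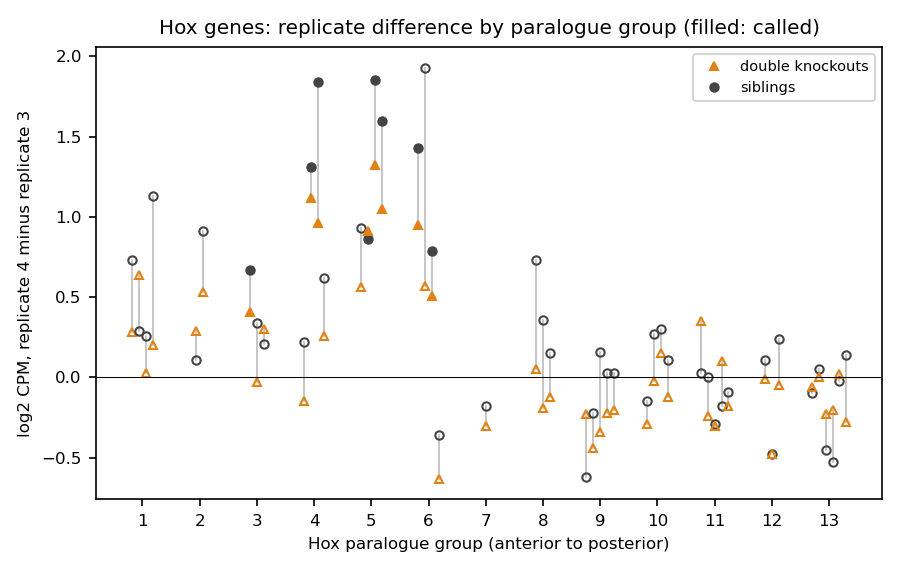
Log2 CPM difference (replicate 4 minus replicate 3) of each measured hox gene by paralogue group, in double knockouts (triangles) and siblings (circles), joined by a grey line per gene, with called genes filled. The 8 called hox genes lie in groups 3 to 6, and the medians of groups 7 to 13 lie between -0.24 and 0.08.

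Heat-inducible chaperones were higher in replicate 4 across several families. Of 49 measured genes 29 were called higher and 4 lower, with a median of 1.19, and the summed level was 19014 and 18966 CPM in replicate 4, against 7705 and 8169 CPM in replicate 3. The small heat shock protein gene hspb1 had 1138 and 1085 CPM in replicate 4, against 31.4 and 35.3 CPM in replicate 3, and hspa1b, an inducible Hsp70, had 186 and 195 CPM in replicate 4, against 10.5 and 10.5 CPM in replicate 3 (log2 differences 5.06 ± 0.12 and 4.18 ± 0.11). Inducible Hsp70 copies hsp70.1 (32.8 and 60 CPM in replicate 4, against 7.1 and 12.3 CPM in replicate 3) and hsp70.3 (55 and 125 CPM in replicate 4, against 15.5 and 23.9 CPM in replicate 3) were higher, and in replicate 4 their sibling library stood above the knockout library. These copies and hsp70.2 and hsp70l are near identical, so the split of reads between them is uncertain, and the call of hsp70l was lost without either replicate 4 library. The muscle Hsp90 gene hsp90aa1.1 had 2578 and 2163 CPM in replicate 4, against 438 and 408 CPM in replicate 3 (log2 difference 2.48 ± 0.1, adjusted p = 0.00199).

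Partners of Hsp90 were higher along with it. The immunophilin gene fkbp4 had 1065 and 923 CPM in replicate 4, against 83.3 and 84.4 CPM in replicate 3 (log2 difference 3.56 ± 0.11, adjusted p = 0.00146). The adaptor gene stip1 had 643 and 629.8 CPM in replicate 4, against 108 and 109.9 CPM in replicate 3 (log2 difference 2.54 ± 0.09, adjusted p = 0.00165). The activator gene ahsa1b had 153 and 152 CPM in replicate 4, against 31.4 and 29.9 CPM in replicate 3 (log2 difference 2.32 ± 0.1, adjusted p = 0.0021). A chaperone of myosin followed the same pattern. The myosin folding partner gene unc45b had 584 and 461 CPM in replicate 4, against 116 and 84.9 CPM in replicate 3 (log2 difference 2.38 ± 0.1, adjusted p = 0.00199). Within each replicate the genotypes differed far less than the replicates did. Mitochondrial chaperonins were part of the pattern, with hspd1 at 876 and 936 CPM in replicate 4, against 235 and 268 CPM in replicate 3 and hspe1 at 239.6 and 253 CPM in replicate 4, against 64.3 and 91.2 CPM in replicate 3 (log2 differences 1.85 ± 0.09 and 1.69 ± 0.14). The constitutive genes hspa8 (3373 and 3321 CPM in replicate 4, against 2548 and 2749.5 CPM in replicate 3) and hspa9 (383 and 405 CPM in replicate 4, against 308 and 308 CPM in replicate 3) did not pass the test, and hsp90ab1 was called at 0.44 ± 0.1, a call lost without either replicate 4 library.

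Not every member was higher. The heat shock factor gene hsf2 had 13.1 and 9.8 CPM in replicate 4, against 29.2 and 33.7 CPM in replicate 3 (log2 difference -1.46 ± 0.18, adjusted p = 0.0128), while hsf1, the main activator of this response, had 12.5 and 14.3 CPM in replicate 4, against 13 and 13.8 CPM in replicate 3 and did not pass. The small heat shock protein genes hspb6 (52.9 and 41.5 CPM in replicate 4, against 107 and 139 CPM in replicate 3) and hspb15 (3.71 and 2.79 CPM in replicate 4, against 11.8 and 10.8 CPM in replicate 3) were lower. The Hsp40 genes dnajb1b (28.6 and 44 CPM in replicate 4, against 22 and 23.5 CPM in replicate 3), dnajb1a (8.93 and 11.7 CPM in replicate 4, against 13 and 13 CPM in replicate 3) and dnaja1 (22.5 and 30.3 CPM in replicate 4, against 25.9 and 28.1 CPM in replicate 3), and hspb9 (86.8 and 79.5 CPM in replicate 4, against 83.2 and 81 CPM in replicate 3), did not pass. In the smaller fits 25 to 31 chaperone genes were called higher, and 25 held with any library left out.

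Genes of the endoplasmic reticulum response were higher. Of 36 measured genes 19 were called, all higher, with a median of 0.56 and a summed level of 5421 and 5694 CPM in replicate 4, against 2680.4 and 2735 CPM in replicate 3. The co-chaperone gene dnajb9b had 36.4 and 36.4 CPM in replicate 4, against 7.13 and 7.17 CPM in replicate 3 (log2 difference 2.35 ± 0.1, adjusted p = 0.00238). The disulfide isomerase gene pdia6 had 408 and 427 CPM in replicate 4, against 104 and 96 CPM in replicate 3 (log2 difference 2.07 ± 0.1, adjusted p = 0.00279). The Hsp90 of this compartment, hsp90b1, had 927 and 1003 CPM in replicate 4, against 266 and 284 CPM in replicate 3, and BiP, its Hsp70, had 806 and 841 CPM in replicate 4, against 254 and 259 CPM in replicate 3 through hspa5 (log2 differences 1.81 ± 0.09 and 1.68 ± 0.09). The stress factor gene atf4a had 334 and 342 CPM in replicate 4, against 203 and 192 CPM in replicate 3 (log2 difference 0.78 ± 0.09, adjusted p = 0.0128). These 5 calls held with any library left out, as did 11 of the list. The count was 11 without sibling replicate 4 and 13 without knockout replicate 4. Amino acid shortage genes, many of them known targets of Atf4, had 7 of 29 called higher and 2 lower, among them psat1 (69.8 and 69.1 CPM in replicate 4, against 38.4 and 32.8 CPM in replicate 3), atf5b (66.8 and 74.2 CPM in replicate 4, against 33.3 and 32 CPM in replicate 3) and sesn2 (15.5 and 14.7 CPM in replicate 4, against 6.98 and 5.46 CPM in replicate 3), which all held. The cystine carrier gene slc7a11 (0.811 and 0.857 CPM in replicate 4, against 1.81 and 2.53 CPM in replicate 3) and slc3a2a (39.3 and 42.1 CPM in replicate 4, against 67.7 and 88.8 CPM in replicate 3) were lower, and both calls were lost without either replicate 4 library, that of slc7a11 also without sibling replicate 3, where 13 genes of the list were called higher. The median of this list was 0.16, and -0.08 without knockout replicate 3.

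**Figure D5:**
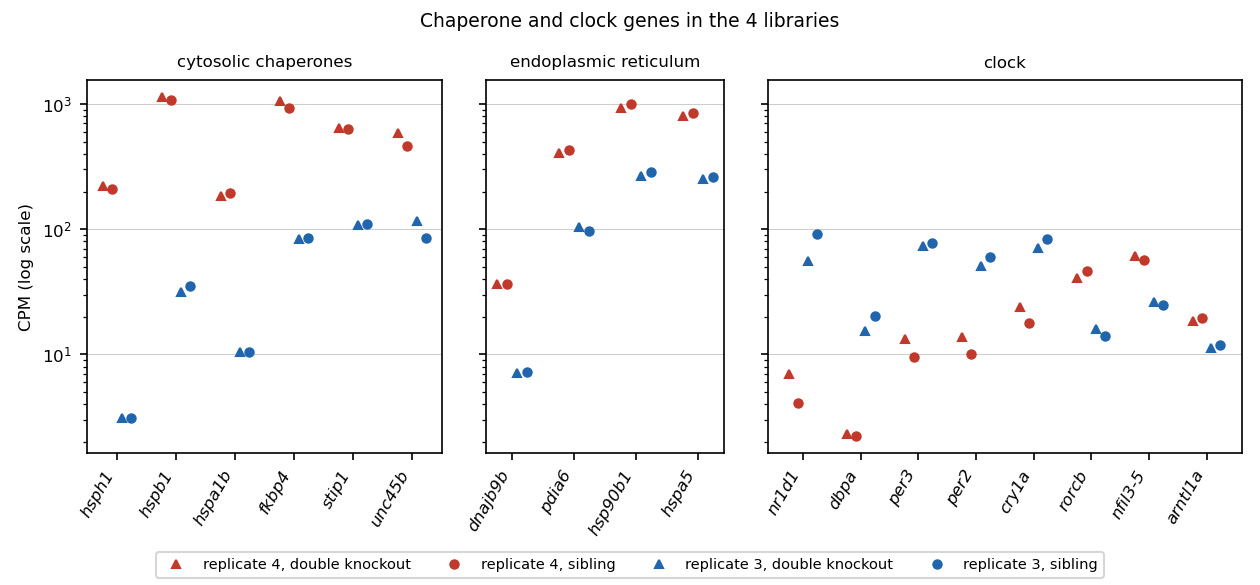
CPM on a log axis for selected called chaperone genes of the cytosol and endoplasmic reticulum and selected called clock genes in each of the 4 libraries. Replicate 4 (red) lies above replicate 3 (blue) for all 10 chaperone genes shown, below it for nr1d1, dbpa, per3, per2 and cry1a, and above it for rorcb, nfil3-5 and arntl1a.

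Clock genes moved in both directions. Of 48 measured genes 20 were called lower and 7 higher, with a median of -0.50. Lower in replicate 4 were mainly repressors and the output factors that bind D-box elements. The gene nr1d1, coding for the nuclear receptor that represses Bmal genes, had 6.93 and 4.06 CPM in replicate 4, against 55.5 and 91.7 CPM in replicate 3 (log2 difference -3.72 ± 0.38, adjusted p = 0.00981). The output factor gene dbpa had 2.32 and 2.22 CPM in replicate 4, against 15.3 and 20.1 CPM in replicate 3 (log2 difference -2.95 ± 0.18), and its relative dbpb had a log2 difference of -2.73 ± 0.25. For all of these the replicates did not overlap. The period gene per3 had 13.4 and 9.55 CPM in replicate 4, against 73.7 and 77.5 CPM in replicate 3 (log2 difference -2.74 ± 0.17). The period gene per1b had 16.1 and 11.6 CPM in replicate 4, against 38.5 and 52.9 CPM in replicate 3 (log2 difference -1.72 ± 0.24). The light-inducible genes per2 (13.8 and 10.1 CPM in replicate 4, against 51.3 and 60 CPM in replicate 3) and cry1a (24.1 and 17.9 CPM in replicate 4, against 70.5 and 83 CPM in replicate 3) were lower too, with log2 differences of -2.22 ± 0.19 and -1.88 ± 0.18.

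Among the 7 clock genes called higher were an activator of Bmal genes and a D-box repressor. The receptor gene rorcb, which activates Bmal genes in mammals, had 40.5 and 46.4 CPM in replicate 4, against 15.9 and 14.1 CPM in replicate 3 (log2 difference 1.53 ± 0.13, adjusted p = 0.00721). The D-box repressor gene nfil3-5, which acts against the output factors above, had 61.4 and 57.2 CPM in replicate 4, against 26.3 and 25 CPM in replicate 3 (log2 difference 1.21 ± 0.1, adjusted p = 0.00655). The gene cry3b had 31.5 and 31.3 CPM in replicate 4, against 15.6 and 12.7 CPM in replicate 3 (log2 difference 1.16 ± 0.12, adjusted p = 0.00987). The Bmal1 gene arntl1a had 18.6 and 19.5 CPM in replicate 4, against 11.2 and 11.9 CPM in replicate 3 (log2 difference 0.72 ± 0.11, adjusted p = 0.0211), a call lost without sibling replicate 4 and without knockout replicate 4. The partner gene clocka had 7.59 and 7.74 CPM in replicate 4, against 5.86 and 6 CPM in replicate 3 and did not pass. For each of these 5 genes the replicates did not overlap. The calls of rorcb, nfil3-5, cry3b and 14 lower genes held with any library left out. Genes called higher numbered 3 without knockout replicate 4 and 4 without sibling replicate 4.

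Light-responsive repair genes, a list that shares tefa, per2, cry1a, cry5 and cry-dash with the clock list, had 10 of 18 called lower and 1 higher. The photolyase gene cry5, which repairs ultraviolet damage using light, had 3.88 and 4.06 CPM in replicate 4, against 15.6 and 15.9 CPM in replicate 3 (log2 difference -1.99 ± 0.14, adjusted p = 0.00501). The damage sensor gene ddb2 had 5.36 and 3.3 CPM in replicate 4, against 14.3 and 15.7 CPM in replicate 3 (log2 difference -1.82 ± 0.23, adjusted p = 0.0148). Both held with any library left out. The excision repair gene xpc had 9.3 and 10.15 CPM in replicate 4, against 13.5 and 15.9 CPM in replicate 3 (log2 difference -0.59 ± 0.12, adjusted p = 0.0404), a call lost in 3 of the 4 smaller fits, and ercc5 was the higher one (14.5 and 18.1 CPM in replicate 4, against 10.4 and 9.75 CPM in replicate 3), a call lost without either replicate 4 library. The count called lower was 5 without sibling replicate 4.

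Immediate early genes were lower. Of 43 measured genes 17 were called lower and 1, btg1, higher, with a median of -0.48. The factor gene egr1 had 19 and 20.1 CPM in replicate 4, against 47.7 and 71.5 CPM in replicate 3 (log2 difference -1.58 ± 0.15, adjusted p = 0.0089). Of the Fos family, fosl1a had 17.6 and 23.1 CPM in replicate 4, against 47.9 and 62.3 CPM in replicate 3 (log2 difference -1.44 ± 0.1, adjusted p = 0.00506). The gene fosab had 95.8 and 92.8 CPM in replicate 4, against 142 and 227 CPM in replicate 3 (log2 difference -0.93 ± 0.19, adjusted p = 0.0388). In fosab the sibling library of replicate 3 stood well above the knockout library. The myc relative mych had 50.7 and 45.8 CPM in replicate 4, against 97.2 and 129.9 CPM in replicate 3 (log2 difference -1.22 ± 0.16, adjusted p = 0.0157). The calls of egr1, fosl1a, mych and jund held with any library left out, and that of fosab was lost without either replicate 4 library, its log2 difference being -0.59 without sibling replicate 3. The count called lower was 6 without sibling replicate 4 and 5 without knockout replicate 4.

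Lists of energy metabolism differed in their counts. Of 38 fatty acid oxidation genes 13 were called, all lower, with a median of -0.41. The calls of the peroxisomal gene acaa1 (7.56 and 7.27 CPM in replicate 4, against 18.5 and 26.9 CPM in replicate 3) and the fatty acid activating gene acsl1b (45.4 and 44.4 CPM in replicate 4, against 114 and 116 CPM in replicate 3) held with any library left out. The carnitine transfer gene cpt1b had 36.5 and 32.1 CPM in replicate 4, against 54.2 and 61.1 CPM in replicate 3, and the regulator gene ppargc1a had 8.17 and 6.54 CPM in replicate 4, against 12.4 and 13.4 CPM in replicate 3, with calls lost without sibling replicate 4, where 3 of the list were called, and 7 were without knockout replicate 4. Of 13 mitochondrially encoded genes 8 were called lower, with a median of -0.56. The cytochrome oxidase gene mt-co1 had 10249 and 9983 CPM in replicate 4, against 15556 and 16119.9 CPM in replicate 3 (log2 difference -0.65 ± 0.11, adjusted p = 0.0257), and without sibling replicate 4 the count was 2. Of the 87 nuclear genes of the respiratory chain 1, ndufa4, was called, and it was lower (49.9 and 52.5 CPM in replicate 4, against 87.1 and 109 CPM in replicate 3), with a median of -0.01 over the list. Without sibling replicate 3, 8 of these were called higher, and without knockout replicate 3, 6 were called lower. Glycolysis had 2 of 32 called higher, 5 lower and 25 not called, with a median of -0.10. The lower ones were led by aldoaa (657 and 645 CPM in replicate 4, against 1312 and 1506 CPM in replicate 3) and ldha (575 and 503 CPM in replicate 4, against 956 and 984 CPM in replicate 3), and the counts were 0 and 2 without sibling replicate 4, and 3 and 11 without knockout replicate 3.

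Drug and steroid metabolizing cytochrome P450 genes were mostly lower. Of 36 measured genes 17 were called lower and 3 higher, with a median of -0.82. The gene cyp2n13 had 1.74 and 1.94 CPM in replicate 4, against 25.2 and 39.6 CPM in replicate 3 (log2 difference -4.11 ± 0.17, adjusted p = 0.00199). In the same direction, cyp2p8 had 3.59 and 2.98 CPM in replicate 4, against 30.2 and 46.3 CPM in replicate 3 (log2 difference -3.5 ± 0.24, adjusted p = 0.00486). The gene cyp3a65, active in gut and liver, had 12 and 12.9 CPM in replicate 4, against 65.9 and 68.7 CPM in replicate 3 (log2 difference -2.44 ± 0.1, adjusted p = 0.0021). These members of families 2 and 3 were called lower, and so was a member of family 1. The aryl hydrocarbon receptor target cyp1a had 8.52 and 6.54 CPM in replicate 4, against 19 and 25.6 CPM in replicate 3 (log2 difference -1.56 ± 0.22, adjusted p = 0.018). Going the other way, cyp2aa9 had 35.1 and 55.7 CPM in replicate 4, against 10.1 and 15 CPM in replicate 3 (log2 difference 1.85 ± 0.1, adjusted p = 0.00335). All of these held with any library left out, as did 14 of the lower calls, and related genes of these clusters can share reads. The summed level of the intestine list moved with these genes (539 and 485 CPM in replicate 4, against 1620.1 and 2389 CPM in replicate 3). The liver list had a median of 0.76, and cyp2k6, a member of the liver and P450 lists, was called lower. The part of either organ in these genes was not tested. Antioxidant and haem breakdown genes had 8 of 39 called lower and 2 higher. The glutathione enzyme genes gstm.3 (15 and 15.6 CPM in replicate 4, against 39.3 and 45.3 CPM in replicate 3) and gpx1a (12.8 and 10.9 CPM in replicate 4, against 24.4 and 30.7 CPM in replicate 3) were lower, and the mitochondrial peroxiredoxin gene prdx3 (43.7 and 37 CPM in replicate 4, against 19.6 and 20.2 CPM in replicate 3) was higher. In that list 2 were called lower without sibling replicate 4 and 17 without knockout replicate 3.

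Of 74 cell cycle genes 15 were called lower and 1, cenpe, higher, with a median of -0.16. The replication clamp gene pcna had 145 and 130.1 CPM in replicate 4, against 222 and 205 CPM in replicate 3 (log2 difference -0.64 ± 0.09, adjusted p = 0.0185). The helicase gene mcm6 had 47.7 and 45 CPM in replicate 4, against 77.4 and 75.8 CPM in replicate 3 (log2 difference -0.72 ± 0.1, adjusted p = 0.0163). The ligase gene lig1 had 11 and 10.34 CPM in replicate 4, against 22.8 and 24.3 CPM in replicate 3 (log2 difference -1.14 ± 0.11, adjusted p = 0.00926). The call of lig1 held with any library left out. Those of pcna and mcm6 were lost without sibling replicate 4, where 2 of the list were called lower, as also without knockout replicate 4. Without knockout replicate 3, 8 of the list were called higher. The mitotic kinase genes cdk1 (17.6 and 16.8 CPM in replicate 4, against 16.2 and 15.4 CPM in replicate 3) and plk1 (11 and 11.8 CPM in replicate 4, against 9.14 and 10.5 CPM in replicate 3) did not pass.

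Some large gene families were called below the background share. Of 84 cytosolic ribosomal protein genes, counted without the S6 kinases that share their prefix, 1 was called, rpl10, which was lower (109.6 and 101 CPM in replicate 4, against 194 and 152 CPM in replicate 3). Its call was lost without either replicate 4 library, and 15 ribosomal genes were called higher without sibling replicate 3. Proteasome subunit genes had 0 calls among 39 by edgeR and by DESeq2 and 1 lower by limma-voom, with 3 higher and 4 lower at an unadjusted p under 0.05 in edgeR. Interferon response genes had 1 of 20 called lower, stat2 (4.49 and 5.77 CPM in replicate 4, against 7.37 and 10 CPM in replicate 3), a call lost in 3 of the 4 smaller fits. The median of the interferon list was -0.34, with 12 members lower and 4 higher in both genotypes. At an unadjusted p under 0.05 edgeR had 3 of them higher and 8 lower.

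In either direction 17.2% of the cholesterol synthesis genes and 9.52% of the metalloproteinase and inhibitor genes were called, against 15.1% of all features. Of the smaller lists, cholesterol synthesis genes had 2 of 29 called higher and 3 lower, with the receptor gene ldlra at 29 and 24.1 CPM in replicate 4, against 52.5 and 64.1 CPM in replicate 3. The counts were 0 and 1 without either replicate 4 library, 6 and 3 without sibling replicate 3, and 2 and 11 without knockout replicate 3. Aminoacyl-tRNA synthetase genes had 4 of 21 called higher (farsa, nars1, aars1 and farsb), at log2 differences of 0.53, 0.49, 0.45 and 0.44, and these calls were lost without either replicate 4 library. Glucocorticoid and fasting genes had 2 of 32 called higher and 7 lower, with the tyrosine aminotransferase gene tat at 6.95 and 8.03 CPM in replicate 4, against 19.7 and 27.4 CPM in replicate 3. That list had 0 and 2 without sibling replicate 4 and 9 and 7 without sibling replicate 3. Inflammation genes had 4 of 26 called higher, which were the complement genes c3a.1, cfb and c4b and plekhf1, and 5 lower, among them mmp9 (40.1 and 30.8 CPM in replicate 4, against 74.8 and 49 CPM in replicate 3) and ptgs2b (17 and 20.6 CPM in replicate 4, against 28.3 and 31.4 CPM in replicate 3). The 5 lower calls were lost without either replicate 4 library. Of the higher calls those of cfb and c4b were lost without sibling replicate 4 and that of plekhf1 without knockout replicate 4, and that of c3a.1 held with any library left out. The metalloproteinase gene mmp30 had 28.1 and 25.7 CPM in replicate 4, against 104 and 109.7 CPM in replicate 3 (log2 difference -1.99 ± 0.11, adjusted p = 0.00335) and was, with mmp9, the pair called among 21 metalloproteinase and inhibitor genes. Lysosome genes had 9 of 43 called higher and 3 lower. Among them lamp1a had 33.7 and 38.5 CPM in replicate 4, against 14.8 and 14.2 CPM in replicate 3 (log2 difference 1.31 ± 0.11, adjusted p = 0.00739) and held with any library left out, while 2 were called higher without sibling replicate 4 and 15 without sibling replicate 3.

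The pathway terms of the deposited table gave a summary with gene sets that were not made by hand, though they overlap with the lists above. There were 142 terms with at least 15 measured Ensembl genes, and over the 5048 genes with any term 7.69% were called higher and 9.75% lower. The term with the largest share called higher was protein processing in the endoplasmic reticulum, with 58 of 174 genes (33.3%) and 5 lower, and 20 were higher without sibling replicate 4 and 28 without knockout replicate 4. Protein export followed with 5 of 22 (22.7%), of which 4 (spcs1, sec61g, sec61b and srpra) were lost without sibling replicate 4. Glycosaminoglycan degradation had 4 of 19 (21.1%) called higher and 1 lower, and other glycan degradation had 4 of 21 (19%) called higher and 4 lower. Without sibling replicate 4 none of these calls in either glycan term was left. Phagosome had 23 of 126 (18.3%) called higher and 12 lower, which were 6 and 5 without sibling replicate 4 and 10 and 3 without knockout replicate 4. These terms can share genes, as both glycan terms share hexb. The endoplasmic reticulum term also overlaps with the heat-inducible chaperone list. Its called genes with the largest differences were hspa1b, hsp90aa1.2, hsp90aa1.1, hsp70.1 and hsp70.3 (at a mean of at least 5 CPM), all members of that list. Its share is thus partly a repeat of that list and not a separate result. Genes below were picked from the terms for the size of their difference after the values were seen. In the phagosome term the nitric oxide synthase gene nos1 had 33.1 and 39.8 CPM in replicate 4, against 14.9 and 11.2 CPM in replicate 3 (log2 difference 1.49 ± 0.18, adjusted p = 0.0138). The glycan enzyme gene fuca2 had 45.1 and 59.3 CPM in replicate 4, against 29 and 32.4 CPM in replicate 3 (log2 difference 0.76 ± 0.11, adjusted p = 0.0197), a call lost without sibling replicate 4.

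The largest shares of lower calls were in terms of bile acid, steroid and amino acid metabolism, and these terms share genes. The gene cyp7a1 counts in the bile acid, steroid hormone and PPAR terms. The gene got2a counts in the tyrosine, 2-oxocarboxylic acid, cysteine and methionine, and arginine terms, and gpt2 and got1 count in the 2-oxocarboxylic acid and arginine terms. The shares here and in the next paragraph are thus not separate results. Primary bile acid biosynthesis had 10 of 19 genes called lower (52.6%), steroid hormone biosynthesis 12 of 23 (52.2%) and tyrosine metabolism 14 of 27 (51.9%). Without sibling replicate 4 these counts were 3, 6 and 6, and without knockout replicate 4 they were 5, 8 and 9. Cholesterol 7-alpha-hydroxylase, the rate-limiting enzyme of bile acid synthesis, was read through cyp7a1 at 6.09 and 4.16 CPM in replicate 4, against 33.9 and 55.7 CPM in replicate 3 (log2 difference -3.09 ± 0.32, adjusted p = 0.00994). The later bile acid enzyme gene cyp8b1 had 10.7 and 10.7 CPM in replicate 4, against 32 and 52.6 CPM in replicate 3 (log2 difference -1.94 ± 0.19, adjusted p = 0.00934). The steroid reductase gene srd5a2a had 4.67 and 3.27 CPM in replicate 4, against 13.6 and 26.6 CPM in replicate 3 (log2 difference -2.27 ± 0.37, adjusted p = 0.0241). The tyrosine term held enzymes that make amines and break down the amino acid. Aromatic L-amino acid decarboxylase, which makes dopamine and serotonin, was read through ddc at 1.94 and 1.62 CPM in replicate 4, against 16 and 17.7 CPM in replicate 3 (log2 difference -3.24 ± 0.18, adjusted p = 0.00335). The tyrosine enzyme gene hpdb had 62.9 and 50 CPM in replicate 4, against 120 and 137 CPM in replicate 3 (log2 difference -1.19 ± 0.15, adjusted p = 0.0144). In these 5 genes both replicate 4 libraries lay below both replicate 3 libraries.

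The next terms were 2-oxocarboxylic acid metabolism (8 of 18, 44.4%), ABC transporters (14 of 36, 38.9%), tryptophan metabolism (16 of 44, 36.4%), cysteine and methionine metabolism (17 of 48, 35.4%), arginine biosynthesis (6 of 18, 33.3%), PPAR signaling (22 of 68, 32.4%) and histidine metabolism (7 of 22, 31.8%). In that order the counts without sibling replicate 4 were 4, 5, 11, 9, 4, 9 and 4. In the ABC transporter term the gene abcb4 had 5.16 and 3.97 CPM in replicate 4, against 36.8 and 54 CPM in replicate 3 (log2 difference -3.29 ± 0.24, adjusted p = 0.00571). The tryptophan dioxygenase gene tdo2b had 0.551 and 0.888 CPM in replicate 4, against 9.91 and 11.7 CPM in replicate 3 (log2 difference -3.92 ± 0.23, adjusted p = 0.00397). For both genes the replicates lay more than 8-fold apart on average. The methionine adenosyltransferase gene mat2ab had 14.4 and 11.8 CPM in replicate 4, against 37.8 and 51.9 CPM in replicate 3 (log2 difference -1.76 ± 0.2, adjusted p = 0.0114). The transaminase gene gpt2 had 33.7 and 30.3 CPM in replicate 4, against 65.7 and 66.8 CPM in replicate 3 (log2 difference -1.05 ± 0.11, adjusted p = 0.00955). In the PPAR term the fatty acid uptake receptor gene cd36 had 7.77 and 6.76 CPM in replicate 4, against 35.1 and 49.9 CPM in replicate 3 (log2 difference -2.53 ± 0.2, adjusted p = 0.00595). The ileal bile acid binding gene fabp6 had 5.82 and 5.3 CPM in replicate 4, against 22.2 and 45.8 CPM in replicate 3 (log2 difference -2.52 ± 0.3, adjusted p = 0.0122). Several of these genes, fabp6 and ugt1a1 among them, are also members of the intestine list, whose summed level moved with these terms. The liver list had 19 of 39 measured genes called higher, 2 lower and a median of 0.76. Its 2 lower genes, tdo2a and cyp2k6, code for enzymes, and tdo2a (log2 difference -3.19) also counts in the tryptophan term. The parts of the gut and of the liver in these shares were not tested.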

How the data were processed

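Poly(A) RNA was sequenced in 4 libraries. The deposited counts per feature came from reads aligned with HISAT2 2.2.1 to GRCz11, per the submitters' processing notes, which also name DESeq2 1.26.0. Neither the labels nor these notes name the read counter, its annotation or its strand setting (not given in the sources used here). The authors also deposited FPKM values, used only as an alternative with a pseudocount of 1. The 19924 features comprised 17610 Ensembl genes and 2314 assembled models. No low-count filter removed a feature, since each deposited feature already had at least 26 counts in its highest library. Genes near 0 in 1 replicate, such as ela2l (7 and 8 counts in replicate 4), reach that level through the other replicate alone. The numbers of measured genes and the shares over all features refer to this deposited set. Counts were tested with edgeR 4.0.16 (TMM scaling, quasi-likelihood, genotype and replicate as terms, 1 residual degree of freedom) in R 4.3.3, with Benjamini-Hochberg adjustment over all features. An interaction of genotype and replicate could not be fitted. The procedure was also run on simulated counts with known changes in some features, with the outcome not reported here. These counts held no genotype effect, so they do not test how the fit handles differences between genotypes. The alternatives included DESeq2 1.42.0, limma 3.58.1 and fits without each library.

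Named genes are the 15 largest differences in each direction and, per list, up to 5 members in each direction, called and with a mean of at least 5 CPM. Members outside this rule were chosen after their values were seen. Since called genes were named for the size of their difference, remarks that their replicates did not overlap are no separate support. The comparison, the members and the gene lists were chosen with earlier results of these data known. CPM is not corrected for gene length, so levels are compared between libraries and not between genes. The knocked out gene cpa1 is not analysed here. Some genes and results are not reported here.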

Additional observations from a re-analysis of the deposited data

How the results depend on the processing

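Called genes were selected for the same sign in both genotypes, so few reversals could arise among them and their count does not measure stability. Of the 505 called genes that are named or in a list, 0 changed direction under any alternative run. Of 53 list medians 15 did under at least 1 alternative: 2 with library totals, neurons (-0.02) and glucocorticoid and fasting genes (-0.05), 4 with at least 100 counts required, among them eye (0.21 to -0.17) and islet genes (-0.08 to 0.24), 5 with limma on FPKM, 5 without sibling replicate 3, 2 without sibling replicate 4, 4 without knockout replicate 3, among them amino acid shortage (-0.08) and glucocorticoid and fasting genes (-0.33), and 4 without knockout replicate 4. Library totals left 1378 features called higher and moved those called lower to 2531, where the calls were 46.2% higher under TMM and 35.3% under totals, and 31.7% with limma on FPKM. A test against a log2 difference of 1 kept 110 features called higher and 151 lower. Leaving out 1 library gave 331 to 2422 features called higher and 549 to 2618 called lower. Of the 505 genes, 278 lost their call without sibling replicate 4, 219 without knockout replicate 4, 28 without knockout replicate 3, 11 without sibling replicate 3, 67 with DESeq2, 41 without the genotype term and 35 with limma on FPKM. The cause of these changes was not tested. The main calls DESeq2 shared were 1986 of 3017 (65.8%). Median shifts of all features stayed within 0.064 on the log2 scale. Genes with few counts in knockout replicate 3, such as myl7, nppa and ctslb, have fitted sizes that depend on the prior count. No paired analysis was possible because the replicate number is itself the factor compared; genotype took the place of the block.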

Other observations

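Serine synthesis and its downstream term moved in both directions. The deposited term glycine, serine and threonine metabolism had 8 of 44 genes called higher (18.2%) and 12 called lower (27.3%). Over genes with any term 7.69% were called higher and 9.75% lower. The counts were 3 and 6 without sibling replicate 4, and 5 and 10 without knockout replicate 4. The serine synthesis gene phgdh had 62.3 and 56.5 CPM in replicate 4, against 34.3 and 35 CPM in replicate 3 (log2 difference 0.78 ± 0.1, adjusted p = 0.0167, edgeR), and its call held with any library left out. Among the 2314 assembled models, which carry no Ensembl gene identifier, 113 were called higher and 172 lower in replicate 4. Both shares lay below the 6.99% and 8.15% of all features, so the calls do not set the models apart.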
